A study of Eohaustorius estuarius with 16 samples.

Results

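The 40 contigs described here are contig_3644 and the 39 contigs whose signals followed it most closely across 16 arrays of the estuarine amphipod Eohaustorius estuarius. They are 40 of 7574 contigs tested, and a further 933 contigs on the array were too dim to be tested. A contig is an assembled transcript fragment, and on these arrays each is known by number alone. The contigs were chosen by their Pearson correlation with contig_3644 in the authors' deposited value table over all 16 arrays, among contigs with at least 50% of their spots well above background on 8 or more arrays. The arrays measured total RNA of whole bodies after 10 days in sediment spiked with cyfluthrin at a nominal 1.6 µg/kg (8 arrays) or in sediment spiked with solvent as the control (8 arrays). The extracts were made by a single laboratory for a comparison of 6 laboratories, and the 1-colour arrays of laboratory B are used here. The labels name a control and an exposed whole body sample without saying how many animals went into each, and give no age, sex or moult stage. The p-values therefore cover the spread between these 16 samples, part of which may be technical.

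Cyfluthrin is a pyrethroid, an insecticide that keeps sodium channels in nerve membranes from closing, and amphipods that live in sediment are widely used to test the toxicity of sediments. Contigs whose signals rise and fall together over animals form a co-expression list. In extracts of whole bodies every tissue is mixed, and a lower signal of a transcript can come from fewer cells that hold it or from less of it in each cell, which cannot be told apart here. No name, sequence or position was paired with the contig numbers, so the list is described by its signals, and no function is given to any contig.

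Levels are given as the log2 processed signal minus the array's 75th percentile, so that 0 is the 75th percentile of an array and a difference of 1 is a doubling. On the cyfluthrin arrays of replicates 1 to 8 contig_3644 had levels of 1.16, -3.0, -2.54, -2.45, -3.32, -2.41, -3.35 and 6.63. On the control arrays of replicates 1 to 8 its levels were 0.25, 1.53, 5.86, -3.49, -3.61, -0.17, -1.65 and 6.41. Cyfluthrin replicate 8, control replicate 3 and control replicate 8 were high, and the groups overlapped over nearly their whole range. The lowest of these 3 arrays lay 4.33 log2 units above the highest of the other 13, and the next widest gap between neighbouring levels was 1.48. The whole range, 10.24 log2 units or 1213-fold, was the 8th widest among the tested contigs. The contig was well above background on all 16 arrays, and its 2 spots differed by at most 0.45 log2 units on any array.

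Of the 3 arrays, cyfluthrin replicate 8 and control replicate 8 shared column 4 of slide 2, in different rows. Control replicate 3 was in column 3 of slide 1. The processed signal had a 75th percentile of 530 on cyfluthrin replicate 8, 768 on control replicate 3 and 467 on control replicate 8, against 463 to 796 over all arrays. The share of spots well above background was 95.4%, 88.6% and 82.5% on the same arrays, the first being the highest of the 16. The spike-in probes, which report RNA added in known amounts, lay 0.94, 0.21 and 1.07 log2 units above the 75th percentile, and 0.21 was the lowest value of the 16 arrays. The part of these measures in the levels of the 3 arrays was not tested.

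The member nearest to contig_3644 was contig_2830 (r = 0.971). It ranged over the cyfluthrin arrays from -7.18 to 3.55 with a median of -6.30, and over the control arrays from -7.38 to 3.30 with a median of -4.49. Its 3 highest arrays were the same 3, at 3.55 on cyfluthrin replicate 8, 3.30 on control replicate 3 and 3.26 on control replicate 8, and a gap of 4.5 log2 units separated them from the other arrays. It was well above background on 3 of 8 cyfluthrin and 5 of 8 control arrays, so its widest contrast was at least 453-fold, taking the dimmest array at the lowest signal that was well above background there. Its cyfluthrin median comes from arrays where it was not well above background, so the difference of its medians is not a measured one.

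The next 4 members had the same arrays on top. On the cyfluthrin arrays contig_3097 (r = 0.944) lay between -5.07 and 0.19 with a median of -3.86, and on the control arrays between -5.19 and -0.18 with a median of -3.37. For contig_737 (r = 0.938) the cyfluthrin arrays ran from -7.44 to -0.28 with a median of -6.28, and the control arrays from -7.42 to -0.31 with a median of -3.90. It has 1 spot per array and was well above background on 2 of 8 cyfluthrin and 6 of 8 control arrays. Its cyfluthrin median therefore comes from arrays where it was not well above background, and the difference of the medians is not a measured one. For contig_6227 (r = 0.936) the cyfluthrin arrays ran from -5.80 to 0.72 with a median of -4.18, and the control arrays from -5.22 to 0.95 with a median of -3.91. This contig has 1 spot per array and was well above background on 6 of 8 cyfluthrin and 7 of 8 control arrays. In each of these contigs, the highest cyfluthrin array was replicate 8. For contig_7506 (r = 0.928) the cyfluthrin arrays ran from -4.98 to -0.57 with a median of -3.80, and the control arrays from -5.18 to -0.86 with a median of -2.76. Of these 4, contig_6227 stood furthest apart on the 3 arrays, by 2.67 log2 units from the next array, and contig_7506 the least, by 0.89.

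**Figure D1:**
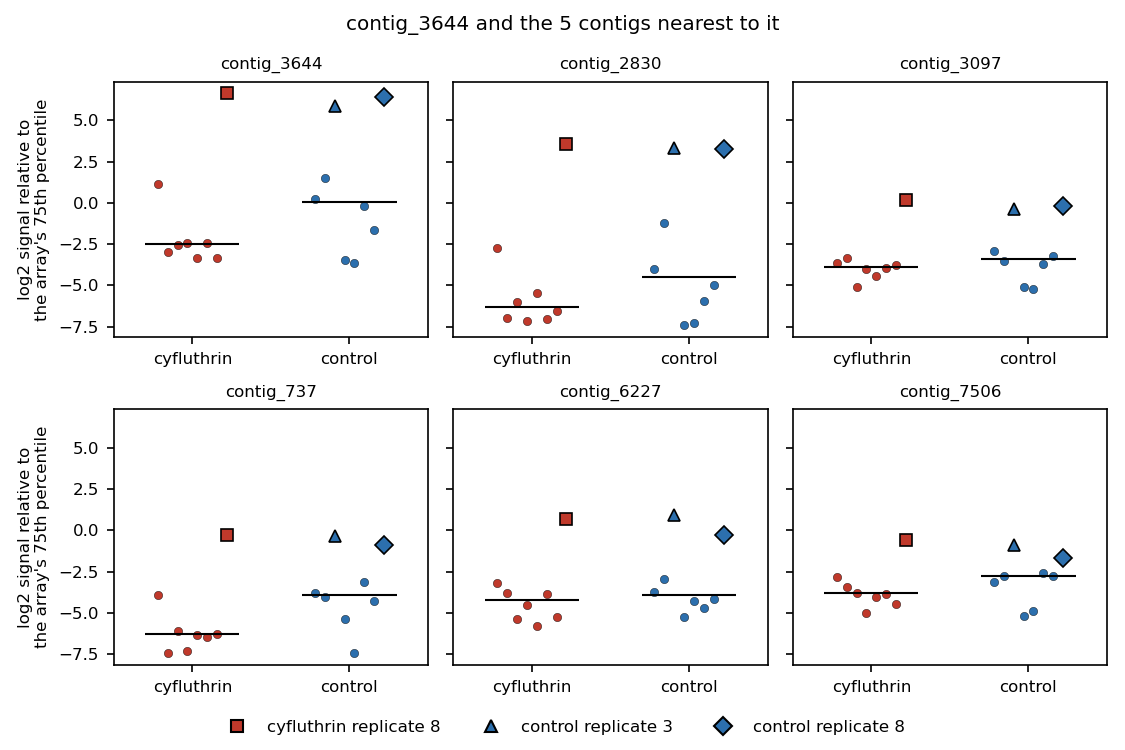
Level of contig_3644 and the 5 contigs nearest to it, one panel each, on the cyfluthrin arrays (left, red) and the control arrays (right, blue), as log2 signal relative to the array's 75th percentile; each point is an array, lines are group medians, and squares, triangles and diamonds mark cyfluthrin replicate 8, control replicate 3 and control replicate 8. The 3 marked arrays lie on top in every panel, between 5.86 and 6.63 for contig_3644, and the other points of the 2 groups overlap.

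Over the 39 contigs r ran from 0.765 (contig_1177) to 0.971, with a median of 0.832. The values at the edge of the list were close together, since contig_7648, the first contig left out, had an r of 0.762. Contig_1177 had a different order of arrays from contig_3644, with control replicate 3 highest at 6.28, then control replicate 7 at 4.62 and control replicate 1 at 4.05. Its cyfluthrin arrays ran from -2.22 to 3.75 with a median of -0.92, and its control arrays from -3.09 to 6.28 with a median of 3.52. In contig_7648 cyfluthrin replicate 8 stood at 0.26 and control replicate 8 at 0.51, but control replicate 3 was at -3.39, within the levels of the other arrays.

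The 3 arrays were the 3 highest for 21 of the 40 members. Of the 7570 tested contigs measured on every array, 25 had the same 3 on top, 0.330%. The members were chosen over these arrays to follow a contig that is highest on the 3. The count of 21 therefore describes the choice and is no test against the other contigs. Cyfluthrin replicate 8 was the highest array for 24 members, control replicate 3 for 12 and control replicate 8 for 3. The exception was contig_4525, named after its values were seen, which was highest on cyfluthrin replicate 1 at 0.85, against 0.77 on control replicate 8. These counts hold for scaling to the 75th percentile. Relative to it the spike-in level was 0.94 on cyfluthrin replicate 8, 0.21 on control replicate 3 and 1.07 on control replicate 8. Spike-in scaling would raise control replicate 3 against cyfluthrin replicate 8 and control replicate 8, and the counts were not made with it.

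Each member was also set against its own median over the 16 arrays. On cyfluthrin replicate 8, 30 of 40 members were more than 4-fold above their median, and the median member lay 3.14 log2 units above it. On control replicate 3 the count was 27 and the median shift 2.57, and on control replicate 8 the count was 24 and the median shift 2.49. Of all tested contigs, 1.78%, 0.951% and 0.845% were more than 4-fold above their median on these 3 arrays. Since the members were chosen to follow a contig high on them, the higher counts of the members come with the choice. Smaller numbers of members were that high on control replicate 6 (8 members), cyfluthrin replicate 1 (7), control replicate 2 (4), control replicate 7 (3) and control replicate 1 (2). On the 8 remaining arrays 0 members were more than 4-fold above their median. The lowest median shift, -1.30, was that of control replicate 5, which was the lowest array for 16 members.

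**Figure D2:**
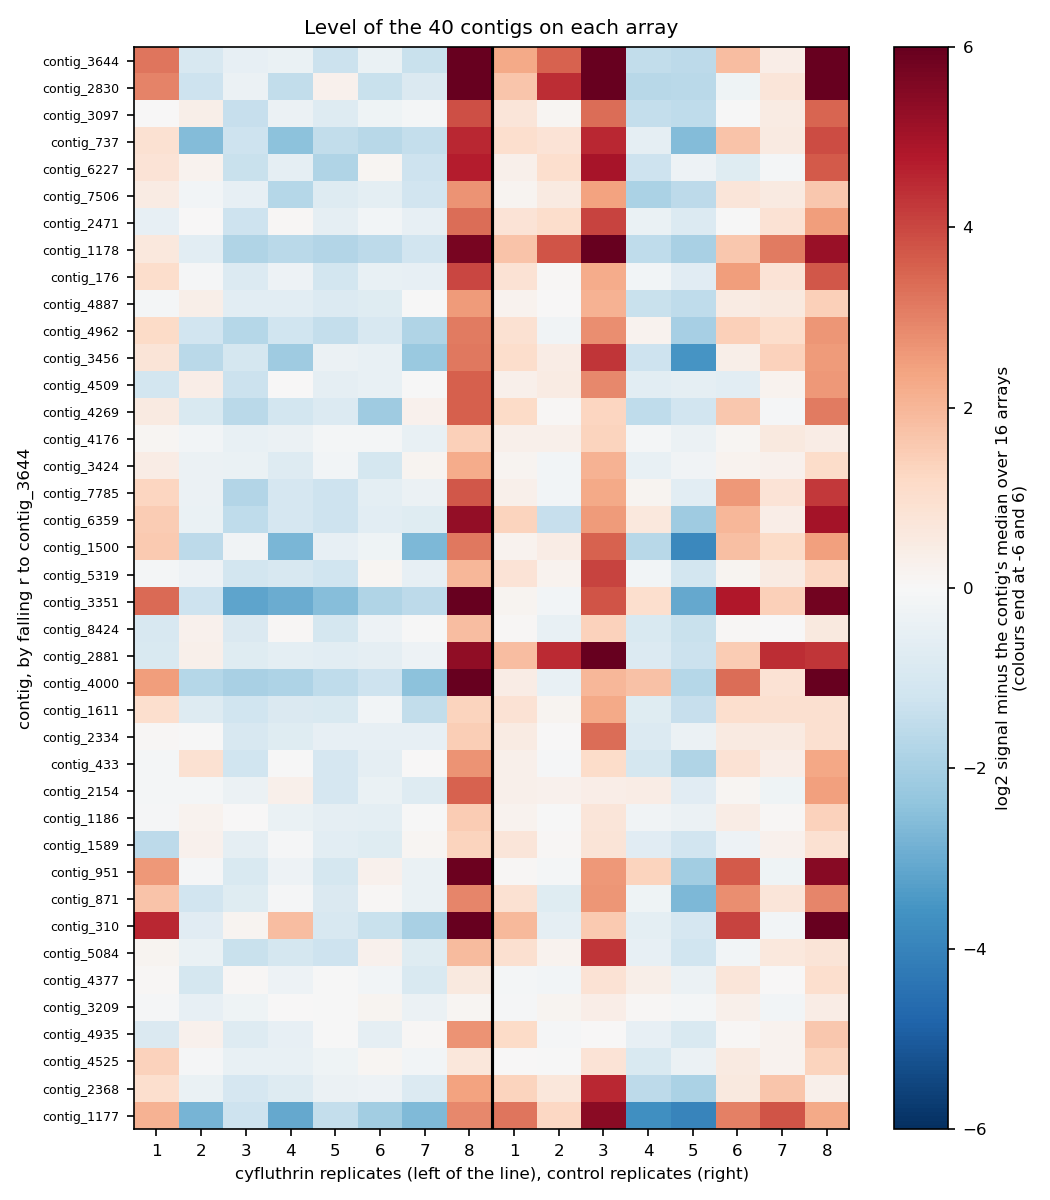
Level of the 40 contigs (rows, by falling correlation with contig_3644) on the cyfluthrin arrays (left of the line) and the control arrays (right of it), as log2 signal minus the contig's own median over 16 arrays, with colours ending at -6 and 6. Cyfluthrin replicate 8, control replicate 3 and control replicate 8 are red in most rows, with 30, 27 and 24 members more than 4-fold above their median.

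Since the correlation rests largely on these 3 arrays, it was computed again over the other 13, as a description. These 13 arrays also took part in the choice of the list, so the values below are no test of it. All 39 contigs had an r above 0, from 0.195 (contig_4509) to 0.857 (contig_2830), with a median of 0.654. An r above 0.5 was found for 31 of the 39, against 4.73% of all tested contigs, whose median was -0.11. Within the 7 cyfluthrin arrays without replicate 8 the median r of the 39 was 0.775 and the lowest -0.58. There 30 exceeded 0.5, against 18.9% of all tested contigs. Within the 6 control arrays without replicates 3 and 8 the median was 0.571 and the lowest -0.15. There 24 exceeded 0.5, against 15.4% of all tested contigs. A list of 40 chosen over the 13 arrays alone shared 7 contigs with this list. The 16 arrays share a laboratory, a labelling method and 2 slides, and the contigs of an array share its scaling.

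**Figure D3:**
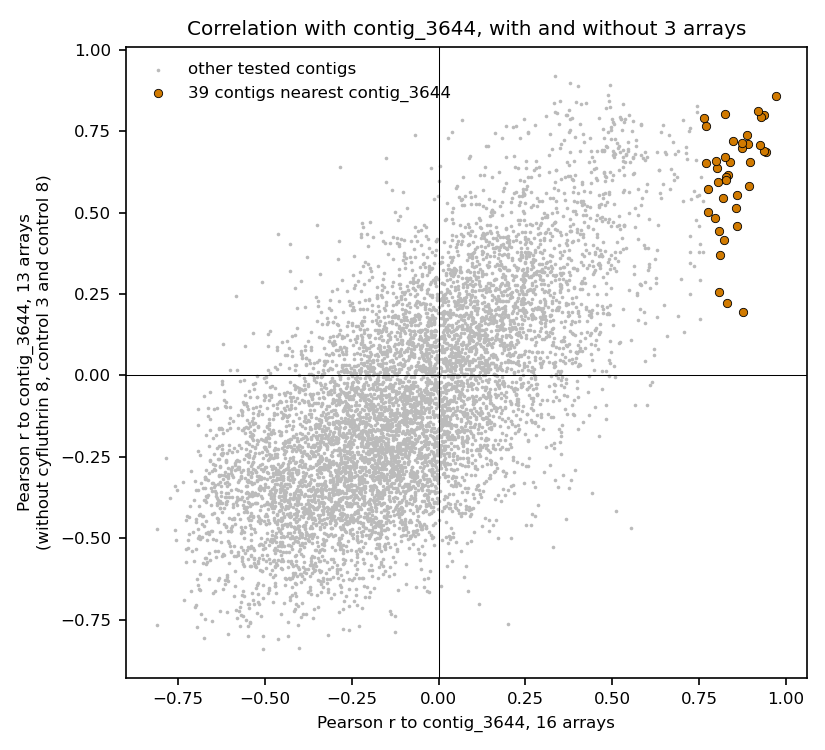
Pearson r of each tested contig with contig_3644 over all 16 arrays (horizontal axis) and over the 13 arrays without cyfluthrin replicate 8, control replicate 3 and control replicate 8 (vertical axis); grey points are other tested contigs and orange points the 39 contigs nearest contig_3644. The orange points, chosen on the horizontal axis at 0.765 and above, spread from 0.195 to 0.857 on the vertical axis.

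The members differed widely in how far they moved. Their ranges over the 16 arrays ran from 0.94 to 10.93 log2 units with a median of 5.32, and 30 of 40 exceeded 4 log2 units, against 4.75% of all tested contigs. The widest were contig_2830 and contig_3644. The narrowest was contig_3209, whose cyfluthrin arrays lay between 1.23 and 1.89 with a median of 1.68, and whose control arrays lay between 1.54 and 2.17 with a median of 1.84. The next narrowest was contig_4176, with cyfluthrin arrays from -2.32 to -0.43 (median -2.0) and control arrays from -2.21 to -0.54 (median -1.55). In contig_3209 control replicates 8, 3 and 6 were the highest arrays, and in contig_4176 cyfluthrin replicate 8 and control replicates 3 and 7 were.

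The probes of contig_871 and contig_4377 gave the highest mean signals of the list, and those of contig_6359 and contig_433 the lowest; a probe's signal also depends on the probe, so these values do not rank the transcripts. The levels of contig_871 ran from 1.07 to 5.19 on the cyfluthrin arrays (median 2.01) and from -0.46 to 5.18 on the control arrays (median 3.06). Control replicate 6 was at 5.03, close to the 3 arrays that stood apart for contig_3644. The levels of contig_4377 ran from 1.44 to 3.07 on the cyfluthrin arrays (median 2.40) and from 2.14 to 3.51 on the control arrays (median 2.69). For contig_6359 they ran from -6.76 to 0.024 on the cyfluthrin arrays (median -5.88) and from -7.38 to -0.25 on the control arrays (median -4.22). It was well above background on 2 of 8 cyfluthrin and 6 of 8 control arrays, and its contrast was at least 36.8-fold. Its cyfluthrin median too comes from arrays where it was not well above background, so the difference of its medians is not a measured one. For contig_433 the levels ran from -6.15 to -2.26 on the cyfluthrin arrays (median -5.03) and from -6.75 to -2.63 on the control arrays (median -4.60), with 5 of 8 arrays well above background in each group. Of the 40 members, 26 were well above background on all 16 arrays and 14 on 8 to 15 of them, and 0 had a saturated spot on any array.

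Spots of a contig on the same array gave nearly the same value. Among the 31 members with 2 or more spots, spots on the same array had a median SD of 0.078 log2 units, against a median SD between arrays of 1.38. The ratio of the SDs was 4.24 in the lowest of these members and 20.7 in the median, against 5.72 in the median of all tested contigs with 2 or more spots. The member with the most spots was contig_3456, named after its values were seen, which has 11. On cyfluthrin replicate 8 its spots lay between 0.40 and 0.49, on control replicate 3 between 1.47 and 1.71, and on control replicate 8 between -0.20 and -0.08. Its lowest array was control replicate 5, with spots between -6.94 and -5.77, so no spot there came near those of the 3 arrays. The 80 spots of the 40 members were spread over the 192 rows and 82 columns of the array, and 6 lay beside a spot of another member.

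The 3 arrays did not hold the members at the same levels. Between cyfluthrin replicate 8 and control replicate 8 the difference ran from -0.62 (contig_4525) to 2.08 log2 units (contig_2368) with a median of 0.52, and 1 member differed by more than 2. Between control replicate 3 and control replicate 8 it ran from -6.20 (contig_310) to 4.54 (contig_2881), with 7 members more than 2 log2 units higher and 6 more than 2 lower on control replicate 3. These counts depend on the scaling to the 75th percentile. Relative to it the spike-in level was 0.21 on control replicate 3 and 1.07 on control replicate 8. Scaled to the spike-in probes, every contig would lie higher on control replicate 3 against control replicate 8 than given here. Contig_310, named after its values were seen, had levels of 2.82 on cyfluthrin replicate 8, -3.60 on control replicate 3 and 2.59 on control replicate 8. It was well above background on 8 arrays. Contig_2881 had levels of 1.78 on cyfluthrin replicate 8, 5.30 on control replicate 3 and 0.75 on control replicate 8. Besides contig_2881, the members higher on control replicate 3 were contig_1178, contig_5319, contig_2334, contig_5084, contig_2368 and contig_1177. Besides contig_310, those lower there were contig_6359, contig_3351, contig_4000, contig_2154 and contig_951.

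Across the 40 contigs, the shifts from each contig's own median on cyfluthrin replicate 8 and on control replicate 8 correlated at r = 0.970. Over the other 7530 tested contigs the shifts of these arrays correlated at r = -0.07. With control replicate 3 the members' shifts correlated at 0.596 for cyfluthrin replicate 8 and 0.53 for control replicate 8. These are correlations across contigs, which are not independent replicates, and both shifts take off the same median. The members were chosen to follow a contig that is high on these arrays, so their correlation describes the choice and is no test against the other contigs.

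**Figure D4:**
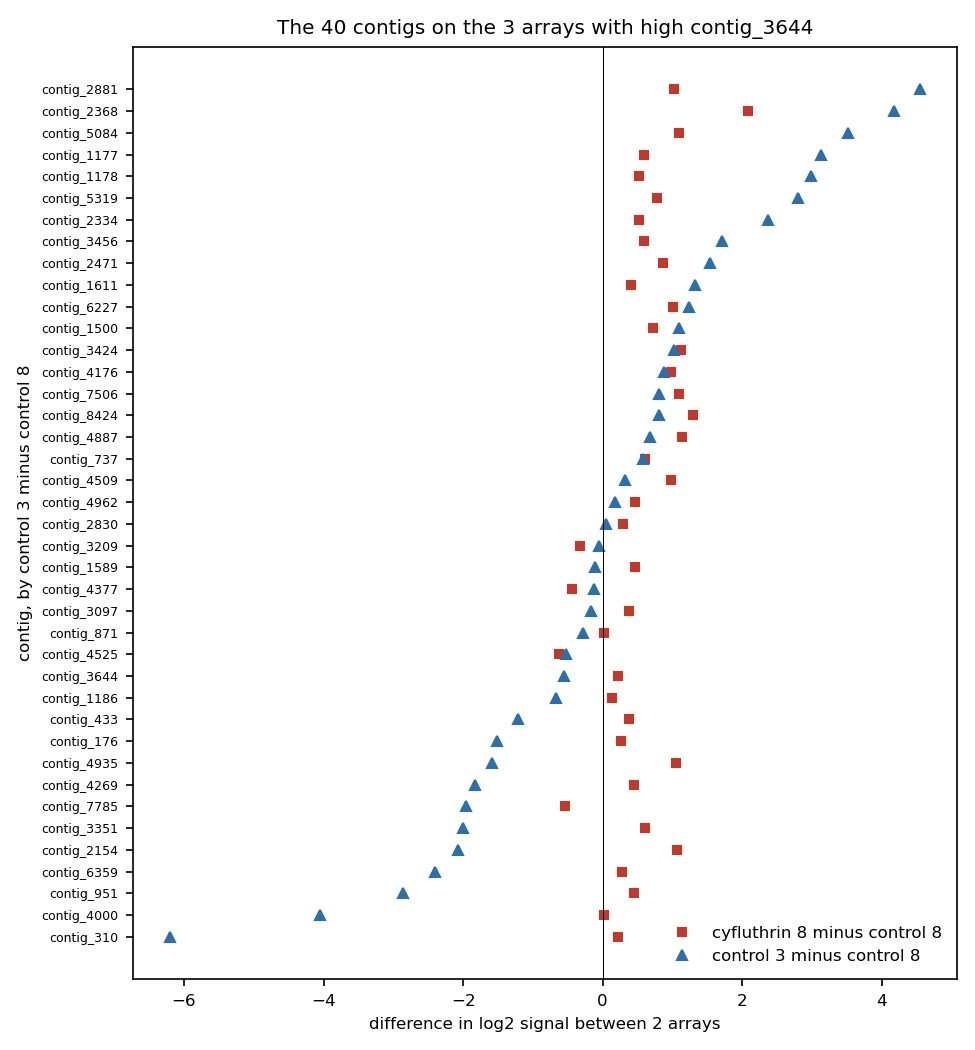
Difference in log2 signal for each of the 40 contigs (rows, ordered by the blue triangles) between cyfluthrin replicate 8 and control replicate 8 (red squares) and between control replicate 3 and control replicate 8 (blue triangles). The squares stay between -0.62 and 2.08, while the triangles run from -6.20 to 4.54. Signals are scaled to each array's 75th percentile, and spike-in scaling would move all triangles to higher values.

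The treatment comparison asked whether these contigs differed after exposure to cyfluthrin. At the adjusted threshold of 0.05, 0 of the 40 rose and 0 fell, in a comparison that called 7.41% of all tested contigs, 3.75% higher and 3.66% lower with cyfluthrin (limma, Benjamini-Hochberg adjustment over all of them). Without adjustment 0 of the 40 had a p under 0.05, against 21.8% of all tested contigs, and in 0 of the 40 did the groups separate without overlap, against 1.93%. Contig_3644 averaged -1.16 ± 3.47 with cyfluthrin and 0.64 ± 3.83 in the control (SD, n = 8 each). Its log2 change was -1.80 (SE 1.69, 95% interval -5.37 to 1.77, limma adjusted p = 0.613), and the exact permutation p over all 12870 choices of 8 arrays was 0.332, 2-sided. The interval runs from a fall to a rise, so 8 arrays a group do not settle the direction.

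The largest differences in the list were those of contig_1178 and contig_2881. Contig_1178 averaged -3.82 ± 2.55 with cyfluthrin and -1.04 ± 3.36 in the control (SD, n = 8 each), a log2 change of -2.79 (SE 1.38, limma adjusted p = 0.253). Its levels on the 3 arrays were 2.17 on cyfluthrin replicate 8, 4.64 on control replicate 3 and 1.65 on control replicate 8. It has 1 spot per array and was well above background on 5 of 8 cyfluthrin and 7 of 8 control arrays. Contig_2881, with 1 spot per array, averaged -3.30 ± 2.08 with cyfluthrin and -0.63 ± 3.31 in the control (SD, n = 8 each), a log2 change of -2.67 (SE 1.28, limma adjusted p = 0.239). Without cyfluthrin replicate 8, 7 cyfluthrin arrays of contig_2881 lay between -4.43 and -3.24, below 6 of the 8 control arrays. Control replicates 3 and 8, at 5.30 and 0.75, stayed in that count, so it leaves out the high array of the cyfluthrin group only. Without all 3 arrays, a choice made after seeing the data, its log2 change was -2.17 (limma adjusted p = 0.217).

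The log2 changes of the 40 contigs ran from -2.79 to -0.05 with a median of -0.81, against a median of 0.01 over all tested contigs. All 40 were negative, as were 48.8% of all tested contigs, and 29 of the 40 were negative after normexp background correction. After that correction the median of all tested contigs was 0.27, and relative to it the members' median was -0.51. A shared direction is what contigs chosen to follow the same contig have, so the 40 signs do not add to each other. The standard errors were large, with a median of 0.75 against 0.17 over all tested contigs.

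**Figure D5:**
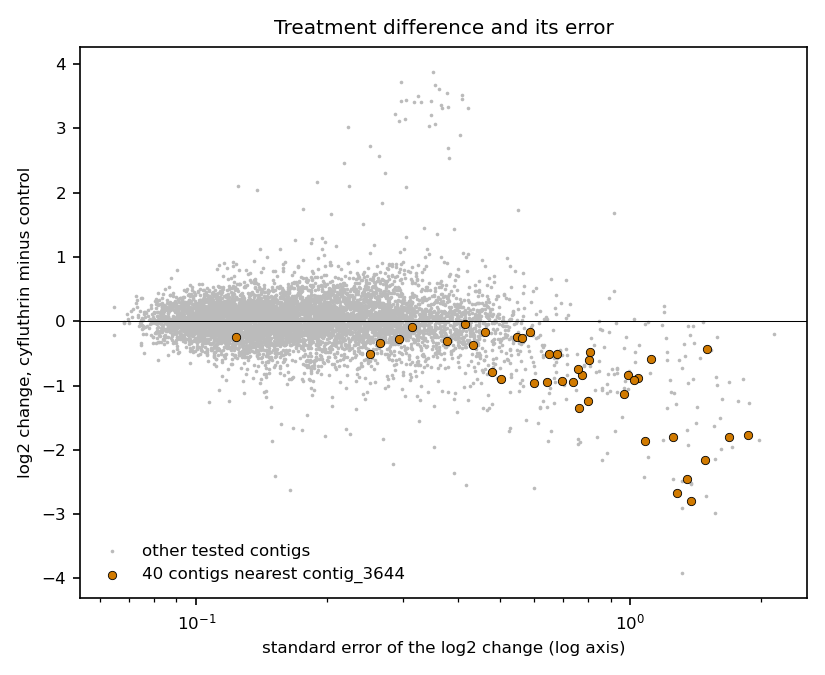
Log2 change, cyfluthrin minus control (vertical axis), against its standard error (horizontal axis, log scale) for the 40 contigs nearest contig_3644 (orange) and the other tested contigs (grey). The orange points lie below 0, between -2.79 and -0.05, at standard errors with a median of 0.75.

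The size of these differences depended on the 3 arrays, of which 1 was a cyfluthrin array and 2 were control arrays. Without cyfluthrin replicate 8 the log2 change of contig_3644 was -2.91 (SE 1.43, limma adjusted p = 0.257) and the median of the 40 was -1.27. Of the 40, 18 then had an unadjusted p under 0.05, against 21.1% of all tested contigs, and 0 passed the adjusted threshold, with 6.17% of all tested contigs called. The members were chosen to follow a contig that is high on all 3 arrays. Leaving out only the cyfluthrin one lowers their cyfluthrin means together, so the count of 18 is no separate result about the members. Without control replicate 3 the change of contig_3644 was -1.05 and the median of the 40 -0.42, and without control replicate 8 they were -0.98 and -0.45. Without all 3 arrays, an alternative chosen after seeing the data, the change of contig_3644 was -1.08 (limma adjusted p = 0.637), the median of the 40 was -0.51 and 38 were negative. Of the 40, 6 then had an unadjusted p under 0.05, against 16.1% of all tested contigs, and 0 passed the adjusted threshold, with 2.9% of all tested contigs called. The lowest adjusted p of any member in any setting run was 0.089, for contig_1178 without cyfluthrin replicate 8 (limma).

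The spread of contig_3644 between arrays was of like size in both groups. Its SD was 3.47 with cyfluthrin and 3.83 in the control, and with the group medians taken out the SDs did not differ past the threshold (exact permutation p = 0.87, 2-sided, n = 8 each). Of the 40 members 22 had the lower SD with cyfluthrin, against 24.3% of all tested contigs. Without the 3 arrays, left out after seeing the data, 31 of the 40 had the lower SD with cyfluthrin, against 25.4% of all tested contigs. For contig_3644 the cyfluthrin levels then lay between -3.35 and 1.16, and the control levels between -3.61 and 1.53. The members were chosen to follow this contig over the same arrays, so they are not separate observations and neither count is a result about spread under cyfluthrin.

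The file headers give the slide, row and column of each array, and each slide and row held both groups. On slide 1 the cyfluthrin arrays were all in row 1 and the control arrays in row 2, and on slide 2 the reverse. Within a slide, treatment therefore cannot be told apart from row. The comparison of rows and that of the treatment difference between slides rest on the same contrast and are not separate checks. Columns were not compared. For contig_3644 slide 2 averaged -0.18 and slide 1 -0.33 (exact permutation p = 0.935, 2-sided, n = 8 each), and row 2 averaged 0.21 and row 1 -0.73 (exact permutation p = 0.636). Between slides 0 of the 40 members differed at the adjusted threshold (limma), with 0.0% of all tested contigs called, and 0 had an unadjusted p under 0.05, against 2.4% of all. Between rows 0 of the 40 differed (limma), with 0.0% of all tested contigs called, and 0 had an unadjusted p under 0.05, against 1.56%. The treatment difference did not itself differ between slides for any of the 40 at the adjusted threshold (limma interaction, 0.0% of all called), and 0 had an unadjusted p under 0.05, against 1.41%. Within slide 1 the log2 change of contig_3644 was -2.74 (limma adjusted p = 0.756) and within slide 2 it was -0.86 (limma adjusted p = 0.892), with medians over the 40 of -1.10 and -0.31. Treatment held 6.49% of the variance of contig_3644 between arrays, slide 0.046% and row 1.79%.

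Measures of the arrays were set against contig_3644 within the 13 arrays other than the 3, because the levels fall into separate clusters and a pooled correlation would rest on the gap. For the 75th percentile of the signal r was -0.18 (permutation p = 0.556) and rho -0.20 (p = 0.504). For the share of spots well above background r was -0.03 (permutation p = 0.922) and rho 0.12 (p = 0.696). For the spike-in level r was 0.15 (permutation p = 0.663) and rho -0.31 (p = 0.308). Without the 2 arrays farthest from the median of the measure, r was -0.29, 0.49 and -0.42 in the same order. Over these 3 relations the adjusted p was 0.922 for each r and 0.696 for each rho.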

How the data were processed

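Total RNA of 8 cyfluthrin and 8 control samples, grouped by their titles, was hybridised to 1-colour Agilent arrays. Per the file headers, the deposited processed signal is an intensity from which Agilent Feature Extraction had taken background and spatial trend, without scaling between arrays. The headers name version 10.7.1.1 of that software, and the submitters' processing notes name 9.1. The value table deposited by the authors holds log2 values. Its columns correlated at 0.998 to 1.00 with quantile-normalized log2 signals with each probe's median set to 0, its column medians ran from -0.038 to 0.048, and the direction was kept; how the authors made it is not given in the sources used here. It held 0 columns without a sample.

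Contigs were chosen on that table. All levels and tests used the log2 processed signal minus each array's 75th percentile over 15208 contig spots; spots marked as outliers and control spots were left out and a contig's spots averaged. Cyfluthrin and control arrays were compared by limma 3.58.1, run in R 4.3.3 (2-sided, no covariate, Benjamini-Hochberg adjustment over 7574 contigs, threshold 0.05); 933 further contigs were not tested. Single values used exact permutation, and correlations over arrays 100000 permutations (Python 3.11.15, scipy 1.17.1). The number of arrays limits the precision. The fit was tested on simulated data.

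The contigs named are contig_3644, the 5 next in correlation, the last and the first left out, the 2 widest, narrowest, brightest, dimmest and most changed members, the 2 most opposite contigs, contig_130 and contig_766; others were named after their values were seen. The members and lists were chosen with earlier results of these data known. Alternatives were other normalizations, normexp with an offset of 50 on the median signal, spike-in scaling with 5 of 10 probes, other filters, blocks and arrays left out.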

Additional observations from a re-analysis of the deposited data

Results flagged for a closer look

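In groups of 8 arrays, a highest or lowest array was listed here when the distance from it to its neighbour, divided by the group's range, exceeded Dixon's 95% critical value. Chance lists about 1 in 20 groups, and 10 of 46 groups tested were listed. The members were chosen to follow a contig that is high on cyfluthrin replicate 8, so their entries are not separate findings.

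Cyfluthrin replicate 8 stood above the other 7 cyfluthrin arrays for 9 contigs. It lay at 6.63 for contig_3644, where the others ran from -3.35 to 1.16. It lay at 3.55 for contig_2830, where the others ran from -7.18 to -2.71, and at 0.19 for contig_3097, where they ran from -5.07 to -3.32. For contig_6227 it lay at 0.72 and the others from -5.80 to -3.16, and for contig_7648, the first contig left out of the list, at 0.26 and the others from -5.17 to -2.70. For contig_4176 it lay at -0.43 and the others from -2.32 to -1.74, and for contig_6359 at 0.024 and the others from -6.76 to -3.69. For contig_1178 it lay at 2.17 and the others from -5.36 to -2.93, and for contig_2881 at 1.78 and the others from -4.43 to -3.24. Over the whole list 20 of 40 members had this array apart by the same measure, against 1.78% of all tested contigs. In the control group 0 of the named contigs had an array apart by this measure. It takes the distance to the neighbouring array, so it cannot list control replicates 3 and 8 where both are high and close together. For contig_3644 these lay at 5.86 and 6.41, and the next control array at 1.53.

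The spike-in level of control replicate 3 was 0.21 log2 units above the 75th percentile, where the other 7 control arrays ran from 0.93 to 1.15. Scaled to the spike-in probes in place of the 75th percentile, the range of contig_3644 over the control arrays was 10.38 log2 units, against 10.02. The highest control array was control replicate 3 with spike-in scaling and control replicate 8 with the 75th percentile, so these ranges do not share their top array.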

How the results depend on the processing

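In 31 settings of the treatment comparison, the reported one included, 0 of the members tested passed the adjusted threshold, with 0 to 18 members at an unadjusted p under 0.05. The log2 change of contig_3644 was negative in all of them, from -2.91 to -0.98 over the settings that left out an array, -1.36 after normexp and -2.06 with spike-in scaling. With a replicate block it was -1.80 (limma adjusted p = 0.36) and 7 members had an unadjusted p under 0.05; the block changed no call. Arrays with the same replicate number shared a slide and a column, so the block is also a block of position. They deviated from their group means with correlations of -0.27 to 0.46, over 0.1 in 4 of 8 pairs. The main comparison did not pair samples by number. Over the 40 members the arrays of replicate 8 deviated with r = 0.890, but the members were chosen to follow a contig high on both. The members' median ran from -1.27 to -0.42 with an array left out, and was -0.24 after normexp and -1.08 with spike-in scaling, where the median of all tested contigs was 0.27 and -0.26, against 0.01. Of 443 values of 15 named members, 437 kept their direction and 6 turned: after normexp contig_7506 had 0.038, contig_433 0.50 and contig_6359 0.10; contig_433 had 0.019 without cyfluthrin replicate 3 and 0.13 without control replicate 8, in a range of -0.54 to 0.13 with an array left out; contig_3097 had 0.073 within slide 2. The cause was not tested. The comparisons of contig_3644 between slides, between rows and in SD stayed above the threshold in the alternatives run. Over all tested contigs 561 were called (284 rose, 277 fell), against 349 with array medians, 215 with spike-in scaling (47 rose, 168 fell), 191 after normexp, 365 with the replicate block, 68 within slide 1, 37 within slide 2 and 220 without the 3 arrays.

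Membership depended on how it was chosen. Of the 40, 22 were kept with Spearman correlation, 26 among contigs above background on all arrays (the filter removes the other 14), 17 with control arrays only, 20 with cyfluthrin arrays only, 22 on slide 1, 19 on slide 2, and 7 without the 3 arrays, which was chosen after seeing the data; those with fewer arrays rest on fewer samples. With each array left out in turn 31 to 39 were kept. The remaining choices kept 32 to 39.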

Other observations

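The median r of all tested contigs to contig_3644 was -0.098 over the 16 arrays. A correlation under -0.7 was found for 28 tested contigs, against 69 above 0.7 (contig_3644 itself counted), and 4 had an r at or below -0.765. The most opposite was contig_4968 (r = -0.812, and -0.471 over the 13 arrays without cyfluthrin replicate 8 and control replicates 3 and 8). Its levels ran from -4.07 to -3.03 on the cyfluthrin arrays (median -3.47) and from -4.66 to -3.29 on the control arrays (median -4.05), and control replicates 3 and 8 were its lowest arrays, at -4.66 and -4.64. Next was contig_294 (r = -0.811, and -0.765 over the 13 arrays), from -4.33 to -2.76 on the cyfluthrin arrays (median -3.19) and from -3.79 to -3.13 on the control arrays (median -3.44), lowest on cyfluthrin replicate 1. Both ranges, 1.63 and 1.56 log2 units, were well under that of contig_3644.

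The list shared 0 contigs with the 40 that followed contig_130, which spans a range of like width, from -3.60 to 6.96. The r between contig_130 and contig_3644 was 0.520 over 16 arrays and 0.703 over the 13. For contig_130 the low arrays were cyfluthrin replicates 4 and 7 and control replicates 4 and 5, at -2.76, -3.05, -3.60 and -3.44, and contig_3644 was at -2.45, -3.35, -3.49 and -3.61 on the same arrays. The 40 contigs nearest contig_130 shifted by a median of 0.00 log2 units on cyfluthrin replicate 8, 1.04 on control replicate 3 and 0.15 on control replicate 8. For contig_766, which was well above background on 12 arrays, r to contig_3644 was 0.053.

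Among 120 pairs of arrays, control replicates 2 and 3 had the second highest correlation of the members' shifts from their own medians, 0.855, and over the other 7530 tested contigs theirs was 0.488, the 6th highest; the members' value describes contigs chosen on these arrays. Of the 933 contigs not tested, 4 had an r to contig_3644 at or above that of the last member.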
